A study of Mus musculus with 20 samples.

Results

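The 230 introns described here were spliced in fewer than 60% of the nascent reads that covered them, both before and after erythroid induction. They were chosen by the measured splicing itself: an intron entered when it had at least 10 reads in each condition and a co-transcriptional splicing efficiency (coSE, the fraction of its reads that were spliced) under 0.6 in each. Of 68794 tabulated introns, 4403 had enough reads in both conditions, and 230 of these met the rule, in 145 genes. That is 5.22% of the introns that could meet it. Under 0.6 in the uninduced pool were 9.86% of the same introns, and in the induced pool 8.13%. The low coSE of these introns is therefore a description of how they were selected on the data and carries no test.

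The cells were murine erythroleukemia (MEL) cells, a mouse line of virus-transformed red cell precursors that begins to make hemoglobin when treated with dimethyl sulfoxide (DMSO). The uninduced group was wild-type MEL cells without treatment and the induced group the same cells after 5 days in 2% DMSO. RNA bound to chromatin, depleted of polyadenylated and of ribosomal RNA, was read as long molecules on 2 PacBio instruments, with 2 biological replicates per group. The tables used here give 1 pooled line per intron and condition, so replicates cannot be compared, and the Wilson 95% intervals given cover counting error only. Reads over the introns of Hba-a1, the alpha-globin gene used as a red cell marker, numbered 209 before and 1886 after induction, and the T cell and myeloid markers Cd3e and Itgam had none in either. Ptprc, a marker of white blood cells in general, had 96 and 0; its part in the results was not tested.

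Most introns of mammalian genes are removed while the polymerase is still on the gene. The spliceosome recognises a 5' splice site, a branch point and a 3' splice site, and the minor spliceosome does the same at a small class of introns, known as U12-type, that carry a more rigid 5' site. Some introns are left in the RNA of many cells. They are called retained when the RNA leaves the nucleus with them and detained when the RNA waits in the nucleus, and genes of splicing regulators such as the Clk kinases and the SR and hnRNP proteins are well known for detained introns.

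Sequences at the sites show some of what the chosen introns hold. All coordinates are 1-based on GRCm38, and splice sites are given as deposited, 5' to 3'. In 9 of the 230 introns the annotation has a second acceptor (3' splice site) exactly 3 nt away, used with the same 5' splice site, and 6 of the 9 are listed with sequences. Each line below is the last 20 bases of the intron and the next 3 of the exon, with both AG dinucleotides in capitals.
Add2 intron 1, chr6:86078115-86082714: tttttttttttttttAGcAGttc
Larp4 intron 1, chr15:99972984-99984919: atttttttattgtttAGcAGgtg
Mdm4 intron 2, chr1:133012712-133018776: atgttttacgtttatAGcAGgtg
Edc4 intron 14, chr8:105888046-105888120: ctaggcagctttcccAGcAGcat
Rbm3 intron 5, chrX:8143330-8143657: atatcgctttttcccAGaAGcca
Txnip intron 1, chr3:96558486-96558888: cccttgtctttgtttcccAGcAG

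In the lines of Add2, Larp4, Mdm4, Edc4 and Rbm3 the tabulated intron ends at the second AG and the other annotated intron at the one before it. In Txnip, whose product binds and inhibits thioredoxin, the tabulated intron ends at the AG before. Add2, the gene of the membrane skeleton protein beta-adducin, was spliced in 7 of 58 uninduced reads (0.121) and 6 of 31 induced reads (0.194) at this exact intron, which 1 of 7 spanning transcripts contains. Mdm4, a regulator of p53, was spliced in 26 of 46 and 5 of 13 reads. Rbm3, a cold-inducible RNA-binding protein, was spliced in 8 of 33 and 13 of 23. The deposited column counts exactly spliced reads. Whether reads spliced at the acceptor 3 nt away entered the unspliced count is not stated and was not tested.

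An acceptor 3 nt away was annotated for 3.91% of the chosen introns (interval 2.07% to 7.27%) and for 28 of the other 4173, or 0.671%. Read the other way, 9 of the 37 introns with such an acceptor, 24.3%, met the rule. Counting either splice site and distances up to 30 nt, 31 of the 230 (13.5%) had a second annotated site close by, against 4.17% of the other introns. This distance class was picked after the values had been seen. Rpl41 1, Mau2 13, Dpp7 3, Prkcsh 1, Ermap 7, Hbs1l 4 and Srsf7 5 also belong to it, with a second site between 2 and 9 nt away.

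Of the chosen introns, 4 of the 200 with listed sites (2.00%) began with GTATCC or ATATCC, the letters used here to call an intron U12-type, and they are shown because such introns are rare. The same letters begin 20 of all 3632 introns with listed sites, 0.551%. A match of these letters alone does not show which spliceosome removes the intron. The first line for each is the 5' site, 3 exon bases and the first 6 intron bases in capitals, and the second the 3' site with the last 2 intron bases in capitals.
Tspan31 intron 2, chr10:127068989-127069345, 5' site: tttGTATCC
Tspan31 intron 2, 3' site: ttgccctaacttcttctcAGtat
Gmfb intron 4, chr14:46814988-46815598, 5' site: tcgATATCC
Gmfb intron 4, 3' site: ttctttaacttgagaaaaACctt
Upf1 intron 8, chr8:70339433-70339742, 5' site: ataGTATCC
Upf1 intron 8, 3' site: tgacttaactcagttgccAGatt
Coa3 intron 1, chr11:101278399-101278713, 5' site: tttGTATCC
Coa3 intron 1, 3' site: tttccttgatgagctggaAGatg

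Gmfb intron 4 starts with AT and ends with AC, the other known end pair of U12-type introns. It was spliced in 14 of 27 uninduced and 4 of 10 induced reads, and its measured neighbours were all at 0.818 or above. Tspan31, a tetraspanin gene, had 12 of 34 and 4 of 22 reads spliced at intron 2. Upf1, the helicase of nonsense-mediated decay, had 6 of 16 and 8 of 16 spliced at intron 8. Coa3, which encodes an assembly factor of cytochrome c oxidase, has a single intron, spliced in 0 of 21 and 0 of 25 reads. Over both pools a count of 0 allows a share of up to 6.52%, taken as 3 counts of the total and not as a Wilson bound. A second annotated Coa3 intron shares the 5' site and ends 54 nt earlier. The letters TTAAC or CTAAC, searched on the strand of the RNA, were found in the last 20 intron bases of 3 of these 4 introns, of 11 of the 20 U12-type introns and of 2.74% of the other 3612; Coa3 is the one without. The other 16 U12-type introns did not meet the rule. Pfdn5 intron 3 was spliced in 45 of 45 and 27 of 27 reads, while Edc4 intron 5 was near the limit, with 19 of 30 and 19 of 39.

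The next introns are shown whole because the annotation also reads them as exon. Of the chosen coding introns, 84 lie inside an exon of another transcript of their gene, so that their sequence could be taken from that GENCODE transcript. Carrying the reading frame on from the exon before, 76 of the 84 (90.5%) hold an in-frame stop codon, against 346 of 376 (92.0%) for the other introns of this kind. Among the 31 with a length that is a multiple of 3, only Oaz1 intron 2, Qars intron 11 and S100pbp introns 3 and 4 had no stop in frame. The first 6 and last 2 bases of each are in capitals, written 5' to 3' on the strand of the gene.
Oaz1 intron 2, chr10:80828797-80828892, plus strand: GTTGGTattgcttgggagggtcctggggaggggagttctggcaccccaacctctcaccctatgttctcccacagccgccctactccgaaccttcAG
S100pbp intron 3, chr4:129182101-129182331, minus strand: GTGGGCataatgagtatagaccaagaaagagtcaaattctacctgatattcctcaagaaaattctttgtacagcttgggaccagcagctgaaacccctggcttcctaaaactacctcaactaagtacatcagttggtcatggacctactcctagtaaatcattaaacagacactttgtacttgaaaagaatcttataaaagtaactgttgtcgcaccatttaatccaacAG
S100pbp intron 4, chr4:129181841-129181966, minus strand: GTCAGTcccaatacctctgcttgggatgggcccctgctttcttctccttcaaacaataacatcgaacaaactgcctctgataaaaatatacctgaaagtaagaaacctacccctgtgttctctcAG

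Oaz1 encodes ornithine decarboxylase antizyme. Its intron 2 is in 1 of the 7 transcripts that span it, and 0 of 46 uninduced and 0 of 15 induced reads were spliced there. Of the 7, 5 hold an intron that shares exactly 1 of its sites. The nearest such intron, of 74 nt, has the same 5' site and ends 22 nt earlier. Whether reads spliced at that end entered the unspliced count was not tested. Introns 3 and 4 of S100pbp were spliced in 5 of 31 and 10 of 35 uninduced reads, and in 1 of 23 and 4 of 24 induced reads. Intron 3 is in 1 of 12 spanning transcripts and an exon runs across it in 6.

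The reads of all 230 introns added together gave a coSE of 0.299 (2134 of 7138 reads, interval 0.288 to 0.310) before and 0.333 (1939 of 5828, 0.321 to 0.345) after induction. Rpl41 intron 1 alone gave 603 of the uninduced reads (8 spliced) and 117 of the induced reads (0 spliced). The sums therefore lean on this intron, more so before induction, and its part in their difference was not tested. The other 4173 introns gave 0.923 and 0.896. The chosen introns thus held 28.5% of all unspliced reads over the 4403 introns before induction and 25.4% after it. Their median coSE was 0.333 and 0.368, with quartiles of 0.200 and 0.466, and of 0.200 and 0.500 after induction. Induced coSE was higher for 113, lower for 102 and equal for 15. The 2 Wilson intervals of an intron did not overlap for 8 of the 230: Ddx3x 8, Glmp 1, Mau2 13, Prdx2 1, Rnf6 1, Rpl3 3, Rpl3 5 and Txnip 7. This count and the split into higher and lower were not made for the other introns, so they do not set the chosen ones apart. In 35 introns coSE was under 0.2 in both pools, and in 14 no spliced read was seen in either.

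**Figure D1:**
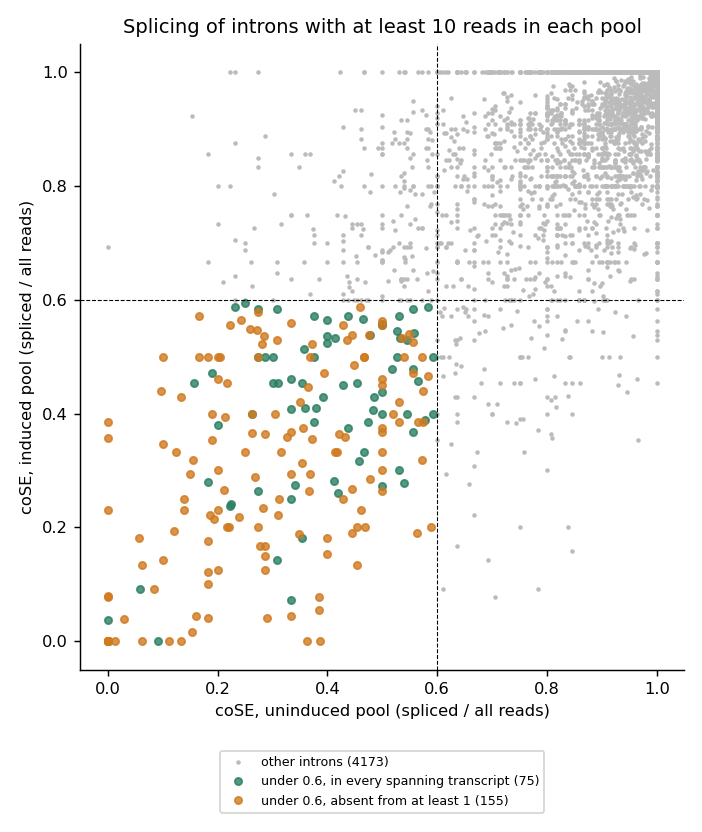
coSE of the 4403 introns with at least 10 reads in each pool, uninduced on the x axis and induced on the y axis, 1 point per intron; dashed lines mark 0.6. The 230 introns under 0.6 in both pools are split into 75 that every spanning annotated transcript contains and 155 absent from at least 1; of the 35 points under 0.2 in both pools, 32 belong to the latter.

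Depth was modest, with a median of 21 uninduced and 18 induced reads per chosen intron, against 21 and 17 for the other introns. For 92 of the 230, the upper Wilson bound was under 0.6 in both pools. Just inside the limit stood Rnf6 intron 1 (10 of 40 and 19 of 32 reads, an induced coSE of 0.594), Slc38a2 intron 15 (16 of 27 and 8 of 20) and Impdh2 intron 10 (16 of 27 and 6 of 12). Just outside were Dnase2a intron 3 (27 of 49 and 9 of 15), Cyp4f13 intron 1 (13 of 29 and 12 of 20) and Mat2a intron 7 (20 of 34 and 6 of 10), each at 0.6 in the induced pool. A few reads separate these 2 sets.

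The most deeply read intron was intron 1 of Rpl41, which encodes a protein of the large ribosomal subunit. It lies in the 5' UTR (chr10:128548972-128549087, 116 nt). Only 8 of 603 uninduced reads were spliced there (0.0133, interval 0.00674 to 0.0260) and 0 of 117 induced reads (upper bound 0.0318). It is in 2 of 7 spanning transcripts, and a second annotated intron with the same 5' site ends 2 nt earlier. The 3' site shows 2 AG in a row, the tabulated one in capitals: ttccctctttctctctagAGact. The 2 intervals overlap, and the intron was almost never seen removed at that exact end in either state.

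Intron 6 of Nop56, a core protein of box C/D small nucleolar ribonucleoproteins, came next. It was spliced in 32 of 151 uninduced (0.212) and 17 of 64 induced reads (0.266), in a gene whose introns 1 to 4 were at 0.912 or above in both pools. Introns 7, 8 and 11 of Nop56 also met the rule, with 50 of 87, 32 of 74 and 7 of 12 uninduced reads spliced. coSE along this gene was thus high over its first 5 introns and low from intron 6 on, apart from introns 9 and 10. Intron 6 is in 3 of 8 spanning transcripts and covered by 3 annotated as retained intron; its short sequence of 83 nt (chr2:130276624-130276706) is shown because the drop in front of it was the largest between neighbours in this gene.
Nop56 intron 6: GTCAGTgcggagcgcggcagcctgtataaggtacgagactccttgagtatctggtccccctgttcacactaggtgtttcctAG

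Rpl3, another large-subunit ribosomal protein gene, had 4 such introns. Intron 3 was the lowest, with 17 of 111 uninduced reads spliced (0.153, interval 0.0979 to 0.232) and 1 of 60 induced reads (0.0167, 0.00295 to 0.0886); the intervals do not overlap. Intron 5, which holds a snoRNA, went the other way, with 22 of 81 (0.272) and 23 of 42 (0.548), again without overlap. Introns 1 and 2 had 51 of 111 and 53 of 133 uninduced reads spliced and 37 of 63 and 32 of 61 induced reads, with overlapping intervals. Intervals of single pools do not show whether the conditions differ.

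**Figure D2:**
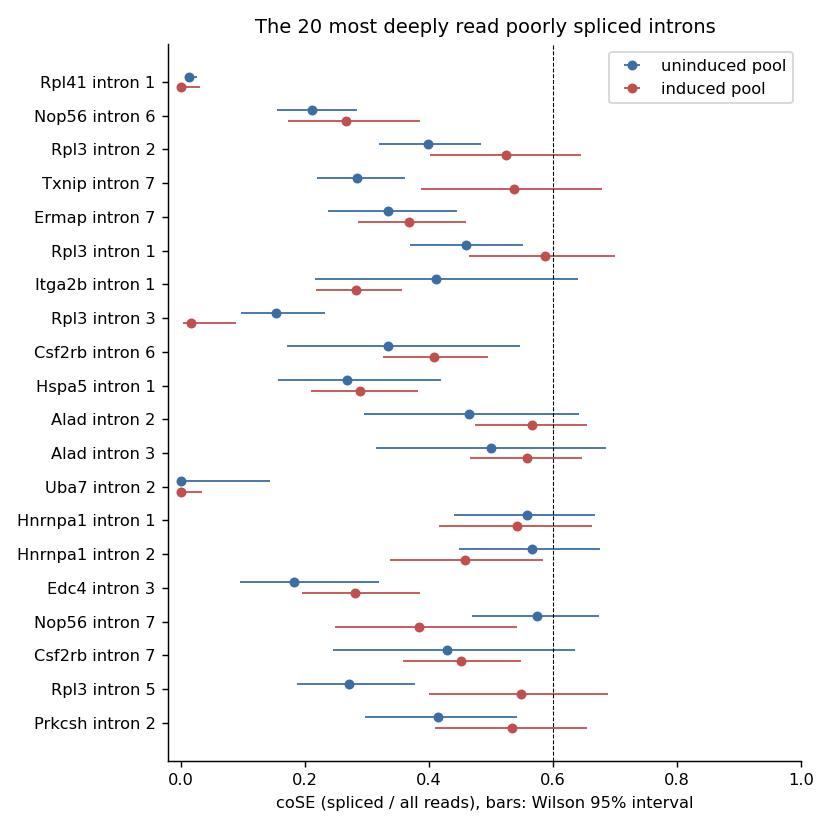
coSE of the 20 chosen introns with the most reads over both pools, x axis coSE from 0 to 1, 1 row per intron, blue for the uninduced and red for the induced pool, bars for Wilson 95% intervals. Rpl41 intron 1 and Uba7 intron 2 lie near 0 in both pools, and the 2 values of most rows overlap, Rpl3 introns 3 and 5 and Txnip intron 7 excepted.

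Ermap, Csf2rb and Itga2b are among the 20 deepest, and Kel follows. Ermap intron 7, in a gene for an erythroid membrane protein, was spliced in 25 of 75 (0.333) and 42 of 114 reads (0.368), while its neighbours were at 0.811 or above in the uninduced and 0.975 or above in the induced pool. It is in 1 of 4 spanning transcripts, and an intron with the same 3' site starts 4 nt away. Csf2rb, the shared beta chain of the IL-3, GM-CSF and IL-5 receptors, had 7 of 21 and 51 of 125 reads spliced at intron 6, and 9 of 21 and 46 of 102 at intron 7. Itga2b, the integrin alpha chain of platelets, had 7 of 17 and 44 of 156 at intron 1 of a short noncoding transcript. Kel, a red cell surface peptidase and blood group gene, had 17 of 50 and 14 of 51 at intron 6 and 11 of 42 and 11 of 30 at intron 8. In each of these genes the 2 intervals of an intron overlapped.

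Txnip intron 7, the last of its transcript, was spliced in 43 of 151 uninduced (0.285, interval 0.219 to 0.361) and 22 of 41 induced reads (0.537, 0.387 to 0.679), which do not overlap. Hspa5, the main chaperone of the endoplasmic reticulum, had 11 of 41 and 30 of 104 reads spliced at intron 1, in the 5' UTR. Edc4, a scaffold of mRNA decapping, had 8 of 44 and 23 of 82 at intron 3. Prkcsh, the beta subunit of glucosidase II, had 24 of 58 and 32 of 60 at intron 2. Both Edc4 intron 3 and Prkcsh intron 2 are in every annotated transcript that spans them.

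Of the 145 genes, 101 had 1 such intron, 26 had 2, 7 had 3, 7 had 4, 2 had 6, 1 had 7 and 1 had 9. The 44 genes with more than 1 held 129 of the 230 introns. In 12 of them every intron with enough reads met the rule; these include Bet1l with 4, Dpp7 and Slc3a2 with 3 and the ferritin heavy chain gene Fth1 with 2. In 26 genes the chosen intron was the only one with enough reads.

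Slc38a2, a transporter of neutral amino acids, had the most, 9 of its 12 measured introns. Their coSE ran from 0.190 to 0.593 before and from 0.260 to 0.560 after induction. The lowest uninduced value was at intron 4 (4 of 21 reads) and the lowest induced value at intron 8 (13 of 50). The 3 measured introns outside the set, 10, 12 and 13, were at 0.556 to 0.757 and 0.571 to 0.652, so this gene had no well spliced intron among those measured. Introns 4 to 7 are also inside an exon of a retained-intron transcript, while introns 8, 9, 11, 14 and 15 are in both spanning transcripts.

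Ppox, the enzyme before the last step of heme synthesis, had 7 of 9 measured introns in the set, introns 3 to 5 and 7 to 10. Uninduced coSE was 0.214 at intron 3 (9 of 42 reads) and 0.189 at intron 4 (7 of 37), and induced coSE 0.394 (13 of 33) and 0.4 (10 of 25). Introns 1 and 2, upstream, stood at 0.658 and 0.771 before induction and at 0.667 and 0.788 after it. Intron 3 had a 3' score of -2.83, far below the median. Calr, an endoplasmic reticulum chaperone, had 6 of 7, introns 2 to 7, between 0.200 and 0.467 uninduced and 0.219 and 0.500 induced. In Calr intron 1 was the exception, at 0.524 and 0.722.

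Eif4g2, a translation initiation factor related to eIF4G, had 6 of 18, with introns 13 and 14 lowest, at 4 of 22 reads each before induction and 4 of 33 and 6 of 34 after it. Cers2, a ceramide synthase gene, had 4 of 6. Its introns 5 and 6 were spliced in 11 of 33 and 9 of 31 uninduced reads, and in 1 of 23 and 1 of 25 induced reads; the intervals of each still overlapped. Hdac10, a deacetylase gene, had introns 1, 2, 3 and 5, between 0.333 and 0.588 uninduced and 0.0714 and 0.571 induced, around intron 4 at 1.00 and 0.667. Ppan, a ribosome assembly factor, had introns 3, 5 and 7, between 0.125 and 0.217 uninduced and 0.333 and 0.500 induced. In Upf1, introns 6, 7 and 8 followed each other, with 3 of 13, 0 of 17 and 6 of 16 uninduced reads spliced and 10 of 17, 3 of 13 and 8 of 16 induced reads.

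The remaining genes with at least 3 were Bet1l, Dpp7, Edc4, Hnrnph1, Slc3a2, Ddx3x, Hspa8 and Qars. In Dpp7, a dipeptidyl peptidase gene, introns 3, 4 and 5 were between 0.182 and 0.200 uninduced and 0.0400 and 0.125 induced. In Slc3a2, the heavy chain of the CD98 amino acid transporter, introns 7 to 9, the last of the gene, were at 0.273 to 0.500 and 0.4 to 0.583. In Ddx3x, an RNA helicase gene, introns 4, 6 and 8 were at 0.286 to 0.500 and 0 to 0.364. Only 4 of the 16 Ddx3x introns had enough reads in both pools, and the other, intron 5, was at 0.739 and 0.636. Ddx3x introns 11 and 12 had too few induced reads, with 9 of 35 and 6 of 27 uninduced and 0 of 9 and 2 of 8 induced reads spliced. In Hspa8, a heat shock cognate chaperone, introns 2, 4 and 7 were at 0.371 to 0.571 and 0.319 to 0.541. In Qars, the glutaminyl-tRNA synthetase, 3 of 15 measured introns met the rule, and intron 7 of the same gene was spliced in 11 of 11 and 14 of 14 reads.

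**Figure D3:**
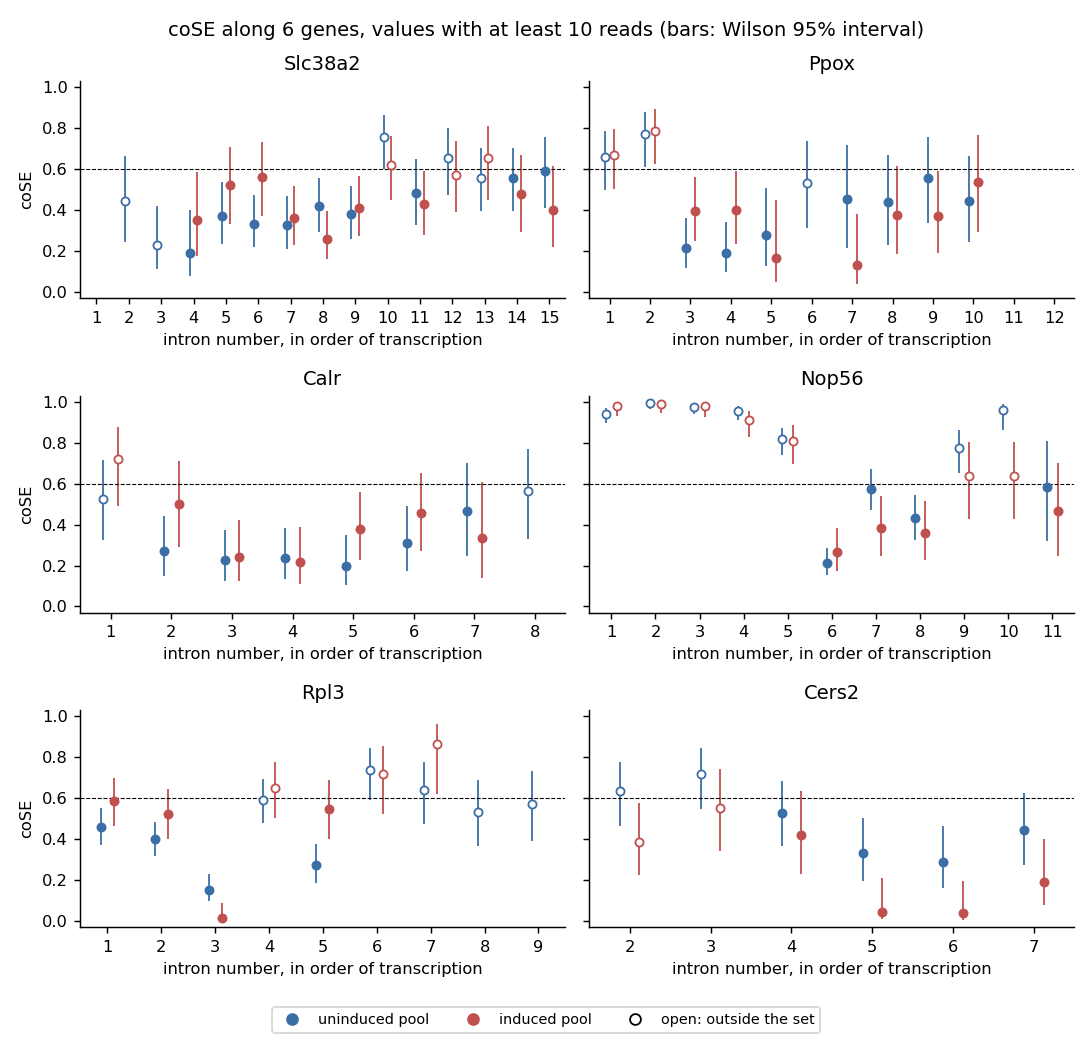
coSE (y axis, 0 to 1) by intron number in order of transcription (x axis) for Slc38a2, Ppox, Calr, Nop56, Rpl3 and Cers2, uninduced in blue and induced in red, with Wilson 95% intervals; values with fewer than 10 reads are left out, filled points are chosen introns and the dashed line is 0.6. Nop56 falls from 0.817 at intron 5 to 0.212 at intron 6 in the uninduced pool, while the low introns of Slc38a2 and Calr run through most of the gene.

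Neighbours were often low as well. Of 280 adjacent introns with enough reads next to a chosen intron, 116 (41.4%, interval 35.8% to 47.3%) also met the rule, against 164 of 6064 (2.70%) next to the other introns. The share was 40.3% for the intron before and 42.6% for the intron after. The median coSE of a neighbour was 0.556 and 0.615, against 0.948 and 0.960 next to the other introns. Introns of a gene share reads and each pair of chosen neighbours was counted from both sides, so these counts are not independent.

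Isolated cases also occurred. Of 90 chosen introns with both neighbours measured, 10 stood between introns at 0.8 or above in both pools: Ermap 7, Zfp207 9, Kel 6, Slc44a2 6, Slc44a2 8, Ptcd3 10, Parp2 5, Gmfb 4, Hbs1l 4 and Gon4l 3. Zfp207 intron 9, with 25 of 70 and 19 of 37 reads spliced, is in all 6 transcripts that span it. In 24 cases both neighbours were themselves chosen introns.

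Isoform annotation set the introns apart from the rest. Of the 230, 155 (67.4%, interval 61.1% to 73.1%) are absent from at least 1 annotated transcript that spans them, against 34.6% of the other introns. For 44 (19.1%), only a minority of the spanning transcripts contain the intron, against 2.56%. An exon of another transcript covers 95 of them (41.3%, against 9.75%), and for 80 (34.8%, against 8.39%) that transcript is annotated as retained intron. A second annotated intron that shares exactly 1 of the 2 splice sites exists for 89 (38.7%, against 23.8%). Introns of 1 gene are counted one by one here, and the annotation itself draws on RNA in which such introns were seen unspliced.

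**Figure D4:**
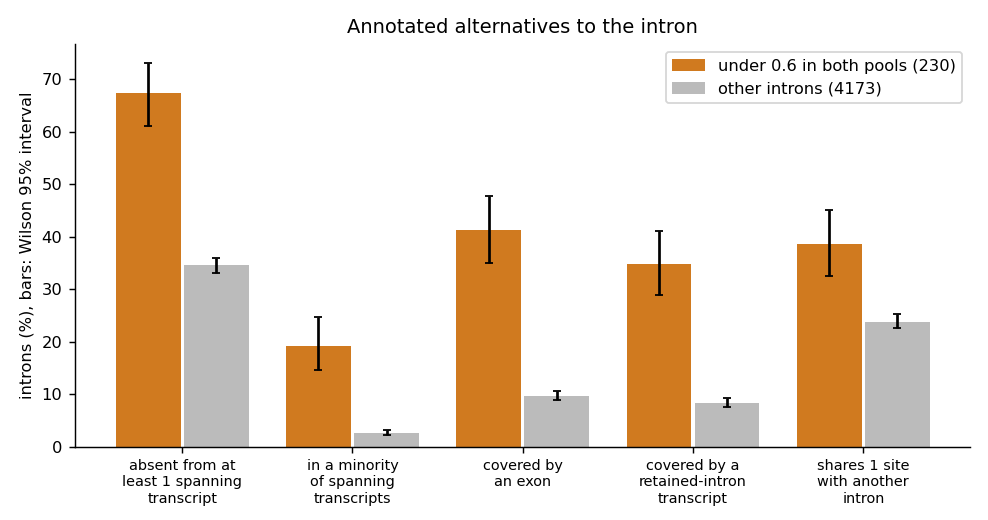
Share of introns (y axis, percent) with each kind of annotated alternative, orange for the 230 chosen introns and grey for the other 4173, bars for Wilson 95% intervals. All 5 orange bars stand above the grey ones, with intervals that do not overlap.

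The other 75 are in every annotated transcript that spans them. Such introns met the rule in 2.67% of 2806 cases, against 9.71% of the 1597 absent from some transcript. Their summed coSE was 0.408 and 0.421, against 0.257 and 0.280 for the 155. The 10 deepest of the 75 are Rpl3 2, Itga2b 1, Csf2rb 6 and 7, Alad 2 and 3, Hnrnpa1 1 and 2, Edc4 3 and Prkcsh 2.

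The 14 introns with no spliced read in either pool are all absent from at least 1 spanning transcript, and 11 of them are in a single annotated transcript. The deepest was Uba7 intron 2, of 69 nt, with 0 of 23 and 0 of 108 reads. By the same rule of 3 counts this allows a share of up to 2.29% over both pools. Of its 9 spanning transcripts, 7 hold an intron that shares exactly 1 of its sites. The nearest such intron, of 89 nt, has the same 5' site and ends 20 nt later. The 2.29% therefore concerns the tabulated intron only. Uba7 encodes the activating enzyme of the ubiquitin-like protein ISG15. Rabggtb intron 1 (0 of 51 and 0 of 18), Kidins220 intron 1 (0 of 30 and 0 of 32), Gm3435 intron 1 (0 of 18 and 0 of 26), Idh3g intron 3 (0 of 34 and 0 of 10) and Hbs1l intron 4 (0 of 22 and 0 of 14) followed, beside Oaz1 and Coa3 above. Bet1l, a Golgi SNARE gene, had introns 3 and 4 in this group, with 0 of 22 and 0 of 18 uninduced reads and 0 of 19 and 0 of 12 induced reads. Gon4l 3, Taf1 10 and Trmt112 1 also belong to it. For 10 of the 14 another annotated intron shares 1 site; in Bet1l the other intron of 1055 nt spans introns 3 and 4 together. For Hbs1l intron 4, of 29196 nt, a second acceptor lies 9 nt away. Whether reads of these other transcripts entered the unspliced counts was not tested.

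The introns were short. Their median length was 302 nt (quartiles 120 and 606), against 1010 nt for the other introns. The share that met the rule was 12.3% of the 365 introns up to 100 nt, 9.68% of the 713 above that and up to 300 nt, 7.12% of the 1193 up to 1000, 1.51% of the 1656 up to 5000 and 1.26% of the 476 longer ones. Among introns in every spanning transcript the shares fell in the same order, from 9.09% of 198 introns up to 100 nt to 0.348% of 287 above 5000. The 5 shortest were Hnrnph1 8 (56 nt), Uba7 2 (69), and Dpp7 5, Hdac10 1 and Ppan 7 (70 each). The 5 longest were Hbs1l 4, Larp4 1 (11936 nt), Gon4l 3 (8025), Kidins220 1 (7250) and Mdm4 2 (6065), and each of these 5 has a second annotated acceptor within 76 nt. How a read had to lie over an intron to count as unspliced is not stated, and its part in the trend with length was not tested.

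**Figure D5:**
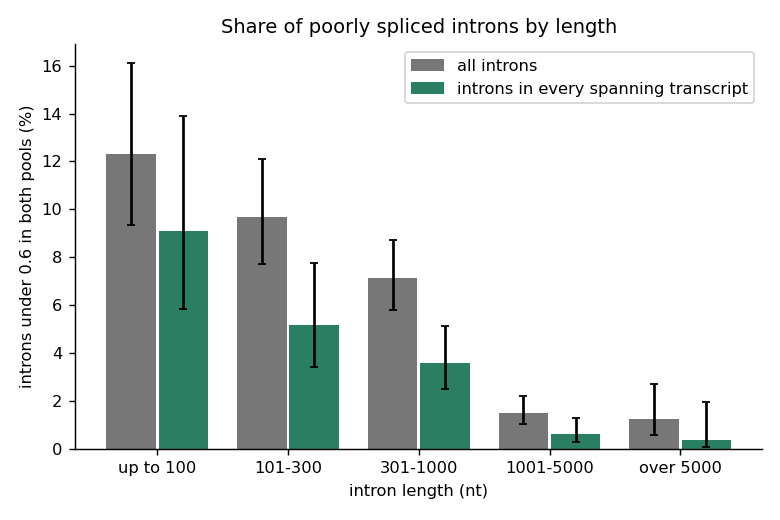
Share of introns under 0.6 in both pools (y axis, percent) by intron length in nt (x axis), grey for all introns and green for those that every spanning transcript contains, bars for Wilson 95% intervals. Both series fall with length, the grey one from 12.3% to 1.26%.

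In position, 37 of the 230 (16.1%) were intron 1 of their transcript, against 18% of the other introns, and 21 (9.13%, interval 6.05% to 13.6%) the last one, against 5.15%. The median distance from the intron's end to the end of the transcript was 3967 nt, against 11451 nt. Coding sequence flanked 197 of them and 27 were in the 5' UTR (11.7%, against 7.12%). The exons on either side did not differ by much, with medians of 122 nt before and 117 nt after, against 119 and 118. Length and distance to the end were not separated.

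On the deposited scores, in which a higher number is closer to the consensus site, the medians of the sites lay close to those of the other introns. The median 5' score was 8.49 (binomial order-statistic 95% interval 8.04 to 8.83, over introns), against 8.78, and the median 3' score 8.07 (7.59 to 8.72), against 8.59, and each of these intervals holds the other introns' median. Among introns in every spanning transcript the median 5' score was 8.86, and with the deepest intron of each gene only the median 3' score was 8.68. At other settings an interval ended below the main-setting median of the other introns. For the 92 introns with an upper Wilson bound under 0.6, chosen after seeing the data, the median 5' score was 7.77 (7.13 to 8.58), an interval that lies below 8.78. The 5' intervals at a minimum of 5 reads (8.04 to 8.72) and a threshold of 0.7 (8.17 to 8.76) also ended below 8.78. The 3' interval at 5 reads (7.68 to 8.36) ended below 8.59. The medians 8.78 and 8.59 belong to the other introns at 10 reads and 0.6. They were not recomputed for the settings named here, so unlike sets stand side by side. The share was highest in the lowest class of scores: 19 of 148 introns with a 5' score under 4 met the rule (12.8%), against 4.56% of those from 8 to under 10. For the 3' score the shares were 10.9% of 174 and 5.09%. The lowest 5' scores belonged to the U12-type introns of Coa3 and Tspan31, both at -6.58, and Upf1 at -6.02. The lowest 3' scores were at Gmfb 4 (-14.59), Hbs1l 4 (-7.96) and Coa3 1 (-6.45). Mcl1 intron 2, in the gene of an anti-apoptotic BCL2 relative, scored high at both sites, 10.24 and 13.28, with 4 of 18 and 5 of 21 reads spliced. The highest 5' score, 11.37, was at Trim28 intron 11, whose 3' score was 2.53, with 7 of 23 and 4 of 10 reads spliced. Pttg1 intron 1, in the securin gene, had a 5' score of 11.11 and a 3' score of 6.93, with 3 of 52 and 2 of 11. A second annotated 5' site lies 12 nt away from that of Pttg1. Slc38a2 intron 7 (13.35) and Chmp1a intron 1 (13.28) had the other high 3' scores.

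The sites of a strong and a weak case are shown side by side, in the same form as above: Mcl1 intron 2 scored 10.24 and 13.28 at its 5' and 3' sites, and Clk1 intron 4 scored -2.49 and 9.68.
Mcl1 intron 2, chr3:95660009-95660706, 5' site: tggGTAAGT
Mcl1 intron 2, 3' site: ttttcttttttgttttctAGgat
Clk1 intron 4, chr1:58419734-58420120, 5' site: gatGTATAG
Clk1 intron 4, 3' site: taattattcctcttttttAGatg
The letters GTAAGT began 27 of the 200 chosen introns with listed sites (13.5%) and 14.4% of all 3632. GTGAGT began 15.5% and 15.9%. The exon before did not end in G for 18.5% of them, against 19.6%. The deposited GC content was higher, with a median of 48.0%, against 43.7%.

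Genes of splicing factors were listed separately because of their known detained introns. Of 118 measured introns in 22 such genes, 17 met the rule (14.4%, interval 9.19% to 21.9%, beside 5.22% overall), in 10 genes. Clk1, a kinase of SR proteins, had introns 3 and 4, each with 4 of 14 uninduced reads spliced, and 2 of 16 and 3 of 20 induced reads. Clk1 introns 1 and 2 were at 0.972 and 0.842 before and at 0.875 and 1.00 after induction, and no other Clk1 intron had enough reads in both. The low pair flanks exon 4. An annotated intron of 1349 nt skips that exon. Srsf7, an SR protein gene, had 10 of 40 and 11 of 33 at intron 3, and 8 of 19 and 4 of 11 at intron 5. Srsf5 intron 5 had 22 of 49 and 16 of 33.

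Among hnRNP genes, Hnrnpk intron 14 was spliced in 0 of 30 and 2 of 25 reads, and 3 retained-intron transcripts cover it. Hnrnpa1 had 39 of 70 and 32 of 59 at intron 1, and 39 of 69 and 27 of 59 at intron 2. Hnrnph1 had introns 6, 8, 11 and 12, with 1 of 12 and 2 of 22 reads at the lowest, intron 6. Ddx5 intron 4 (10 of 18 and 10 of 19), Ewsr1 intron 9 (0 of 10 and 5 of 13), Ccnl1 intron 8 (8 of 16 and 3 of 10) and Srrm1 introns 3 (15 of 30 and 9 of 20) and 7 (0 of 10 and 1 of 13) make up the rest. Srrm1 intron 7 has a second acceptor 3 nt away, and 6 of 7 spanning transcripts hold an intron that shares exactly 1 of its sites.

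Of the heme and red cell list, 11 of 118 measured introns met the rule (9.32%, interval 5.29% to 15.9%, beside 5.22% overall), in 4 of 11 genes, among them 7 in Ppox, 2 in Alad and 1 in Fech. Alad, the second enzyme of heme synthesis, had 13 of 28 and 64 of 113 reads spliced at intron 2, and 12 of 24 and 63 of 113 at intron 3. Fech, which inserts iron into the heme ring, had 4 of 13 and 9 of 17 at intron 4. Of the 6 measured globin introns, 0 met the rule (upper bound 39.0%). Of 258 measured introns in ribosomal protein genes, 7 did (2.71%, interval 1.32% to 5.49%, which holds the 5.22% overall): the 4 of Rpl3, Rpl41 1, Rpl10 2 (2 of 15 and 0 of 10) and Rpl21 3 (2 of 22 and 0 of 10).

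An annotated small nucleolar or Cajal body RNA lies in 7 of the 230 (3.04%, interval 1.48% to 6.15%, against 1.75%). These are Eif3a 9, Eif4g2 14, Nop56 8, Ppan 3, Rabggtb 1, Rpl21 3 and Rpl3 5. Of these, Eif3a intron 9, which holds Snora19, was the most spliced, with 8 of 16 and 10 of 18 reads. An exon of a gene on the other strand overlaps 9 of the 230 (3.91%, against 3.79%), and an exon of another gene on the same strand overlaps 0 of them (upper bound 1.64%).

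After the first step of splicing the upstream exon is cut free, and reads of such molecules are counted in the deposited table as intermediates for part of the introns. For 173 chosen introns in the uninduced pool there were 251 intermediates beside 1463 spliced reads, or 14.6% (interval 13% to 16.4%), and for 151 after induction 236 beside 1297, or 15.4% (13.7% to 17.3%). The other introns gave 2.19% and 3.68%. This ratio has spliced reads in its denominator, which the choice of introns made low. With the deepest intron of each gene only, the shares were 6.81% and 6.21%. Set against all reads of the same introns plus the intermediates, the shares were 3.86% and 4.85%, beside 1.76% and 2.79%. At least 1 intermediate was found at 44.5% and 44.4% of them, against 38.9% and 36.9%.

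Srsf5 intron 5 had the most, 21 intermediates and 17 spliced reads before induction, and 26 and 15 after it. Kel followed, with 8 and 14 before and 25 and 11 after induction at intron 6, and 15 and 7 in either pool at intron 8. Txnip intron 1 had 15 and 24, then 11 and 15. Ermap intron 7 had 8 and 24, then 17 and 42. These 5 were picked for the most intermediates over both pools, and 3 of the 5, Kel 8, Txnip 1 and Ermap 7, have another annotated site for the same intron.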

How the data were processed

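Both tables were deposited by the authors with 1 line per intron and condition, pooled over replicates and instruments; which runs were pooled is not stated. The first holds raw counts of exactly spliced and of merged unspliced reads, per the file headers. The second holds deposited counts of spliced reads and intermediates, the deposited fraction NIC, GC content (a percent) and, for each splice site, its sequence and a score, all deposited by the authors. The submitters' processing notes name cutadapt, minimap2, SAMtools, bedtools and Bowtie and the builds mm10 and dm3, without roles; the counting rules and the scoring program are not given in the sources used here. Whether reads copied from 1 molecule were counted once is not stated, so intervals cover counting error only.

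coSE was computed as spliced over all reads, for introns with at least 10 reads in each pool. Those pools held 416379 uninduced and 279371 induced intron observations in all. Positions were read 1-based (2 added to the start, 1 taken from the end) against GENCODE mouse release 21 on GRCm38; all 230 introns were found in their transcript, 6 of them in another version of it. Introns are numbered in order of transcription. A transcript spans an intron when it reaches beyond both ends. Intron sequences came from GENCODE transcripts with an exon across the intron; all 446 that could be compared matched the deposited sites.

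No statistical test was run on the data: the introns were selected on both pools, and each condition is 1 pool. Shares and medians are set beside those of the other introns, with Wilson 95% intervals, in Python 3.11.15 with SciPy 1.17.1. The rule was tested on simulated data. The introns, gene lists and named cases (the deepest, shortest and longest, extreme scores, most intermediates, genes with at least 3, U12-type sites, listed genes and those nearest the limit) were chosen with earlier results of these data known. The 12 samples with a human globin gene or of PRO-seq were not used here. A few introns and 1 marker gene that the lists hold are not reported here.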

Additional observations from a re-analysis of the deposited data

How the results depend on the processing

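No paired analysis was possible because each condition is 1 pooled line, and for the same reason no replicate could be left out. Of 116 recomputed values, 81 stayed within the interval of the main value (counts within 1.5 times). The number of introns was 79 and 632 at minimums of 20 and 5 reads, 140 and 385 at thresholds of 0.5 and 0.7, 82 with the deepest intron of each gene only, 75 among introns in every spanning transcript, and 92 with the upper Wilson bound under 0.6 (main 230). This last setting, and those that asked for a spliced read in each pool or left out introns with another site within 30 nt, were chosen after seeing the data. The share absent from at least 1 transcript was 60.1% at 5 reads, 75.0% at 0.5 and 80.4% with the Wilson bound (main 67.4%). The share under a retained-intron transcript was 43.0% at 20 reads, 28.0% at 5, 26.8% with 1 intron per gene and 45.7% with the Wilson bound (main 34.8%). The share alone in its gene was 32.9% at 20 reads, 57.1% at 0.5 and 63.0% with the Wilson bound (main 43.9%). The share of neighbours under the threshold was 52.6% at 20 reads, 33.5% at 0.5, 28.6% with the Wilson bound and 29.3% over all other introns of the gene (main 41.4%). The median 5' score was 8.86 for introns in every spanning transcript and 7.77 with the Wilson bound (main 8.49), and the median GC content 50.5% with 1 intron per gene (main 48.0%). Intermediates in the uninduced pool were 21.4% at 0.5, 11.2% at 0.7, 6.81% with 1 intron per gene, 9.61% in every spanning transcript and 20.9% with the Wilson bound (main 14.6%). In the induced pool they were 17.5% at 20 reads, 23.4% at 0.5, 13.4% at 0.7, 6.21% with 1 intron per gene, 11.8% in every spanning transcript and 26.8% with the Wilson bound (main 15.4%). The causes were not tested; a lower threshold leaves fewer spliced reads by construction. Medians of length and of the 3' score and the share of last introns stayed within their intervals under every setting run. At 10 to 20 reads a coSE near 0.6 cannot be placed on either side of it.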
